A study of Mus musculus with 9 samples.

Results

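The genes described here are 40 markers of blood cells other than natural killer (NK) cells, measured by RNA sequencing in NK cells from the mouse spleen. They were chosen by symbol, and all 40 matched a row among the 27179 Entrez genes of the count files. They comprise 12 B cell genes, 10 neutrophil genes, 8 monocyte and macrophage genes, 5 mast cell and basophil genes, 3 dendritic cell genes and 2 platelet genes. Of the 9 libraries, all from C57BL/6 spleen, 3 are labelled WT and 3 Id2-null, and 1 each is labelled Immature, M1 and M2. The WT and Id2-null cells were grown for 7 days in interleukin-15 (IL-15), a cytokine that keeps NK cells alive. Immature, M1 and M2 are wild-type populations that were sorted and went to RNA extraction with no culture. The protocol places samples in culture by their listed number alone, so this assignment rests on the order of listing. The sources used here do not give the gates of the sort, the way Id2 was removed, or the age and number of mice. They also do not say what a replicate is, so p-values measure spread among libraries that could be technical repeats.

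Each of these lineages carries genes that NK cells are not known for. B cells assemble an antigen receptor from immunoglobulin chains and the signalling proteins CD79A and CD79B. Neutrophils load granules with antimicrobial proteins, macrophages of the spleen clear old red cells and opsonised particles, and basophils and mast cells carry the IgE receptor and granule proteases. A sorted library can hold such transcripts from cells that pass the gate, from RNA freed by broken cells, or from NK cells that express the gene, and bulk counts do not separate these. In bulk samples fewer cells of a type and less RNA per cell cannot be told apart either.

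The targeted gene Id2 had 56, 113 and 44 counts in the Id2-null libraries against 1925 to 1958 in WT. Library totals ran from 4128414 to 4831831 counts, so that 3 counts, the level that a count of 0 allows, are worth 0.62 to 0.73 counts-per-million (CPM). Levels below are CPM of the library total. Intervals for single libraries are exact Poisson 95% intervals, and like the limit of 3 counts they cover counting error only. The 15 NK genes of a reference list, such as Ncr1 and Klrb1c, all had counts in every library and in Immature, M1 and M2 they summed to 17598, 27263 and 38052 CPM. Xist and the Y-linked Ddx3y divided the cultures by genotype, with 3109 to 4286 against 1 to 6 counts of Xist and 1 to 3 against 355 to 377 counts of Ddx3y in Id2-null and WT, so sex and genotype cannot be told apart there. All 3 sorted libraries had both, with 361 to 499 counts of Xist and 148 to 192 of Ddx3y.

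The stretches upstream of 2 members show the sequence context of genes that the results below turn on. They are Cma1, which departed from its lineage, and S100a9, which followed the other neutrophil genes. Each is the 250 bases before the RefSeq start on GRCm38.p6, read 5′ to 3′ on the gene's strand, with no GENCODE exon in it. Capitals mark E boxes, written CANNTG, the motif bound by E proteins, which are the partners that ID2 holds off DNA. The motif reads the same on both strands.
Cma1 (chr14:55944676-55944925, minus strand): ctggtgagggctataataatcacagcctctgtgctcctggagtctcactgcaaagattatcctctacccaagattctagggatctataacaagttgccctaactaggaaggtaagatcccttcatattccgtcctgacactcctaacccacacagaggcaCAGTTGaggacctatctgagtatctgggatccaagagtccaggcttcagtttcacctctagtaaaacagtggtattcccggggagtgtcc
S100a9 (chr3:90695722-90695971, minus strand): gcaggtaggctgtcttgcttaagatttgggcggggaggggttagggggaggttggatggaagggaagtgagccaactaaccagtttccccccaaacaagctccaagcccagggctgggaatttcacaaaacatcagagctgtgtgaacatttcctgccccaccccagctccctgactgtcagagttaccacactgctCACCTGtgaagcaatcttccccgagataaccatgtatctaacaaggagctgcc
Both windows hold 1 E box. Among the 31 members with a listed promoter 23 hold at least 1, which is 74.2%, against 66.0% of 27025 genes. A match describes letters and is not evidence of a bound site.

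Across the 40 members the sorted libraries held the markers and the cultures mostly did not. All 40 had counts in Immature and M2 and 39 had counts in M1, where Xcr1 was at 0. In the 6 cultures 25 members were at 0 throughout, 15 had any count, and 6 reached 10 counts in some library. Those were Cd68, Cd14, Mcpt8, Cpa3, Cma1 and Xcr1. Of the 35 members with at least 10 counts in M2, 22 were at 0 in all cultures, as were 1.92% of all genes with 10 counts in M2. Of 36 members with 10 counts in a sorted or WT library, 32 were higher in all 3 sorted libraries than in any WT culture, against 27.9% of all genes. Xcr1 was the 1 member lower in all 3, against 37.7% of all genes. Culture, sorting and the population cannot be told apart in these differences, and the 3 populations are not replicates, so no test was made.

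**Figure D1:**
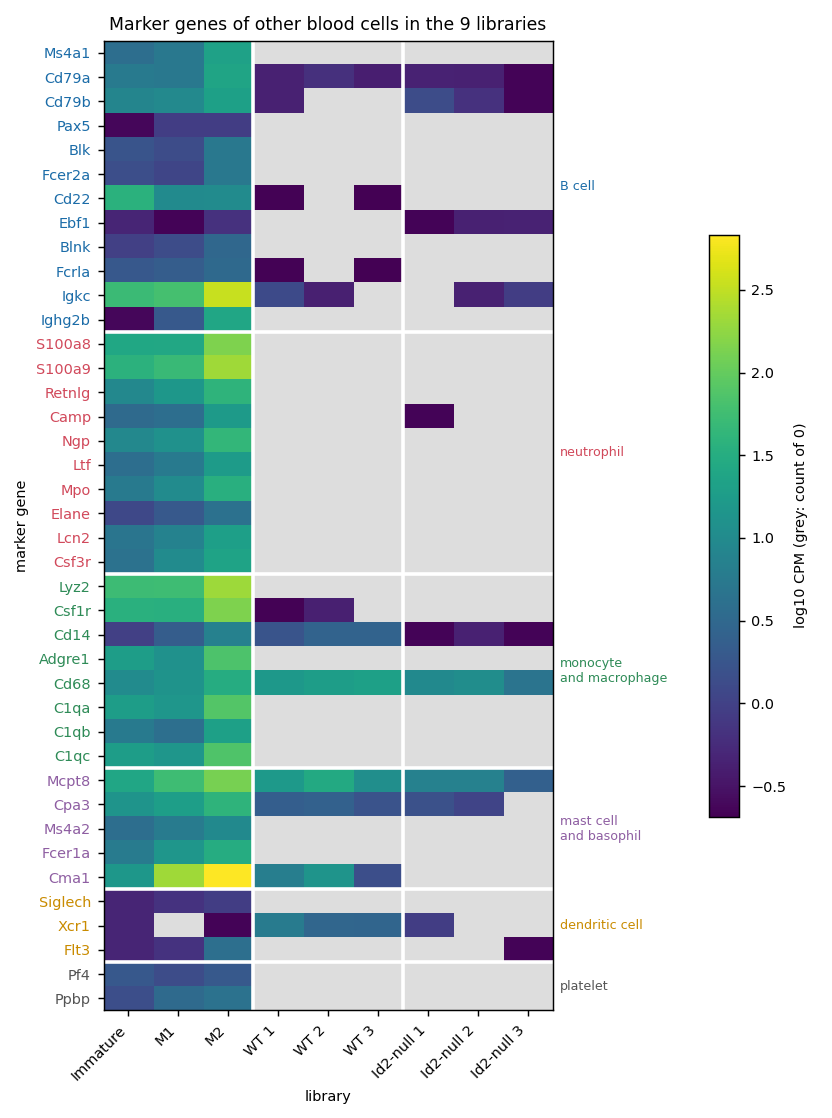
Level of each of the 40 marker genes (vertical axis) in each library (horizontal axis), as log10 CPM, with a count of 0 in grey and the lineage at the right. The 3 sorted libraries at the left hold nearly all markers, M2 most of all, while 25 rows are grey in every culture.

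Among the sorted libraries M2 stood apart. Immature held 448.6 CPM of the 40 members together (interval 428 to 470), M1 held 714 CPM (689 to 739) and M2 held 2559 CPM (2512 to 2606). This corresponds to 0.0449%, 0.0714% and 0.256% of the counts in these libraries. M2 was the highest sorted library for 37 members, all but Cd22, Pax5 and Xcr1. Of 35 members with at least 10 counts in M2 or M1, 31 were at least 2-fold higher in M2 and 0 were 2-fold lower, against 5.55% and 2.83% of all genes. The median ratio of M2 to M1 was 3.34 for these members and 0.992 for all genes. M2 against Immature gave 33 members higher and 1 lower of 35, against 7.22% and 7.96% of all genes, with a median ratio of 4.15. Immature and M1 were closer, with 6 of 29 members higher in M1 and 1 lower, against 2.61% and 5.78% of all genes, and a median ratio of 1.31. With 1 library per population none of these differences has a replicate check.

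**Figure D2:**
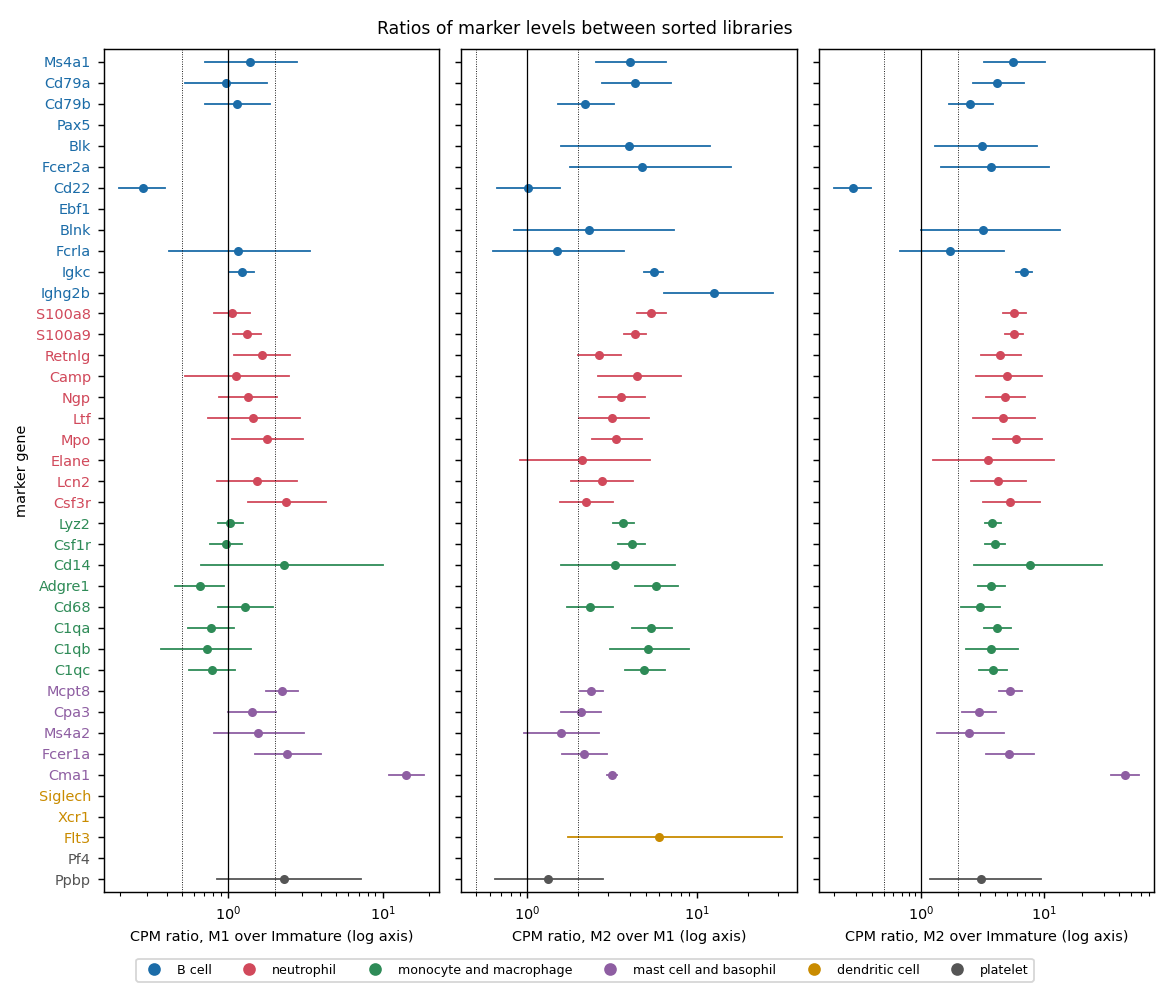
Ratio of CPM between pairs of sorted libraries for each member (log axes), with conditional exact 95% intervals from the counts, for members with at least 10 counts in 1 library of the pair and 3 in the other; dotted lines mark 2-fold. Most points lie near 1 in the left panel and between 2 and 6 in the others, while Cma1 lies far to the right in both comparisons with Immature, Ighg2b in that of M2 with M1, and Cd22 to the left in both comparisons with Immature.

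The neutrophil genes kept close to each other across the sorted libraries. S100a8 and S100a9, the chains of the calcium-binding protein calprotectin, were the highest per unit of length, at 117, 135 and 682 transcripts-per-million (TPM) for S100a8 and 141, 202 and 819 TPM for S100a9 in Immature, M1 and M2. Their counts were 105, 120 and 649 for S100a8 and 157, 223 and 971 for S100a9, with 0 in all 6 cultures. M2 was thus 5.67-fold above Immature for each (intervals 4.61 to 7.04 and 4.79 to 6.76). Ngp, a granule protein of maturing neutrophils, had 38, 55 and 198 counts, and Retnlg, a resistin-like secreted protein, 38, 68 and 182. Mpo, the myeloperoxidase of early granules, had 24, 46 and 155 counts. Both the early granule genes Mpo and Elane and the later granule genes were present in each sorted library.

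The remaining neutrophil genes followed the same order of libraries. Lcn2, an iron-chelating granule protein, had 20, 33 and 91 counts in Immature, M1 and M2. Ltf, which encodes lactoferrin, had 16, 25 and 80, and Camp, which encodes a cathelicidin, 14, 17 and 76. Csf3r, the receptor for the growth factor G-CSF, had 18, 46 and 103 counts, and Elane, neutrophil elastase, 5, 9 and 19. In the cultures 9 of the 10 neutrophil genes were at 0 in all libraries, and the exception was 1 count of Camp in Id2-null replicate 1. The 10 genes summed to 105, 144 and 561 CPM in Immature, M1 and M2, and 10 of 10 were at least 2-fold higher in M2 than in M1. Their ratios of M2 to Immature ran from 3.49 to 5.92. For 7 of the 10 the share of the lineage's counts had overlapping intervals in all 3 libraries. The exceptions were S100a8, at 24.1%, 18.7% and 25.7%, Retnlg, at 8.74%, 10.6% and 7.21%, and Csf3r, at 4.14%, 7.17% and 4.08%.

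Monocyte and macrophage genes summed to 163, 151 and 625 CPM in Immature, M1 and M2. Lyz2, the lysozyme of myeloid cells, was the highest per unit of length, at 92.4, 104 and 360 TPM, with 223, 249 and 923 counts. Csf1r, the receptor for the macrophage growth factor CSF-1, had 145, 152 and 631 counts. Adgre1, which encodes the macrophage antigen F4/80, had 78, 55 and 317. Lyz2 and Adgre1 were at 0 in every culture, while Csf1r had 1 and 2 counts in WT replicates 1 and 2.

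C1qa, C1qb and C1qc encode the chains of complement C1q, which macrophages secrete. Their counts were 78, 65 and 352 for C1qa, 23, 18 and 93 for C1qb and 78, 66 and 325 for C1qc, with 0 in all 6 cultures. The 3 genes lie next to each other on chromosome 4 (136880126 to 136898844 in GRCm38). M2 was 3.71- to 4.14-fold above Immature for them, and 4.88- to 5.37-fold above M1. C1qa and C1qc, at 134 and 127 TPM in M2, ranked next to Lyz2 in the lineage per unit of length. Shares of the lineage's counts had overlapping intervals across the sorted libraries for 7 of 8 members, Lyz2 at 33.2%, 36.9% and 32.8% among them. Cd68, the exception at 6.4%, 8.89% and 5.01%, was also the member with the most counts in the cultures.

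Cd68 encodes a lysosomal membrane protein, and its 43, 60 and 141 counts in Immature, M1 and M2 stood beside 72, 89 and 99 in WT and 43, 50 and 21 in Id2-null cultures. Immature and M1 were therefore below every WT culture in CPM. Cd14, a receptor subunit for bacterial lipopolysaccharide, had 4, 10 and 33 counts in the sorted libraries and 8, 13 and 13 in WT cultures. These were the 2 members of the lineage whose sorted and WT libraries overlapped.

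A further list of 12 monocyte and macrophage genes had the same order of libraries, with 11 of 11 counted genes at least 2-fold higher in M2 than in Immature and a median ratio of 4.10. Slc40a1, the iron exporter ferroportin, stood at 56.7, 49.3 and 232 CPM in Immature, M1 and M2, and Vcam1, an adhesion molecule, at 56.7, 41.0 and 205 CPM. Both are abundant in the macrophages of the splenic red pulp, and both were at 0 in all cultures. A further list of 12 neutrophil genes had 8 of 8 counted genes at least 2-fold higher in M2 than in Immature, with a median ratio of 3.75. The rest had under 10 counts in both libraries. Among these, Ly6g had 0, 4 and 3 counts in Immature, M1 and M2, and G0s2 had 0 in each.

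Most B cell genes were highest in M2, with 8 of 10 counted members at least 2-fold above M1. Igkc, the constant region of the kappa light chain, had 212, 280 and 1571 counts in Immature, M1 and M2, against 0 to 6 in any culture. Per unit of length it was the highest of all members in M2, at 2021 TPM. Ighg2b, a heavy chain constant region of class-switched cells, had 1, 9 and 114 counts. M2 was 12.6-fold above M1 for Ighg2b (interval 6.39 to 28.2) and 5.56-fold for Igkc (4.9 to 6.34). Igkc made 45.8%, 61.4% and 74.5% of the lineage's counts, so the summed level of 112, 102 and 469 CPM was mostly that of Igkc in M1 and M2. Jchain, which joins secreted antibodies and was not a member, had 71, 94 and 538 counts, 5.68-fold above M1 in M2. In that further list of 14 B cell genes 9 of 13 counted genes were at least 2-fold higher in M2 than in Immature and 1 was lower, with a median ratio of 3.34. Ighm, the IgM heavy chain gene and the highest of that list, stood at 474, 343 and 453 CPM, and Ighd, that of IgD, had 22, 23 and 27 counts. Tnfrsf13c, a survival receptor of B cells, was the gene lower in M2, at 10.2, 5.60 and 4.44 CPM.

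Cd79a and Cd79b, the signalling chains of the B cell receptor, had 23, 24 and 104 and 34, 42 and 93 counts. Ms4a1, which encodes CD20, had 16, 24 and 97. M2 was 4.3-fold above M1 for Cd79a (interval 2.74 to 7.01), 2.2-fold for Cd79b (1.51 to 3.24) and 4.01-fold for Ms4a1 (2.54 to 6.55). Immature and M1 had overlapping intervals for these 3. Blk, a kinase of B cell receptor signalling, had 7, 6 and 24 counts, and Fcer2a, the low-affinity IgE receptor, 6, 5 and 24. The adaptor Blnk had 4, 6 and 14 counts and the Fc receptor-like gene Fcrla 8, 10 and 15. Pax5 and Ebf1, transcription factors that set B cell identity, had at most 4 counts in any sorted library. No difference was detectable for them at this depth.

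Cd22, an inhibitory receptor of B cells that binds sialic acid, went the other way. It had 149 counts in Immature, 45 in M1 and 46 in M2, or 36.1, 10.1 and 10.2 CPM. Immature was 3.58-fold above M1, and the ratio of M2 to Immature was 0.283 (interval 0.199 to 0.397). It was the 1 member more than 2-fold lower in M2 than in Immature. In a list of 10 T cell genes 5 were at least 2-fold lower in M2 than in Immature and 2 were higher. The T cell receptor complex genes Cd3d, Cd3e and Cd3g were among the lower ones, with Immature at 222, 103 and 151 CPM, M1 at 28.7, 9.41 and 18.6 CPM and M2 at 30.4, 17.1 and 30.7 CPM. Cd4, Cd8a and Cd8b1, coreceptor genes of T cells, were highest in M2, with 18, 19 and 44, 28, 26 and 52, and 4, 8 and 28 counts in Immature, M1 and M2. The part of other cells in the Cd22 level was not tested.

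**Figure D3:**
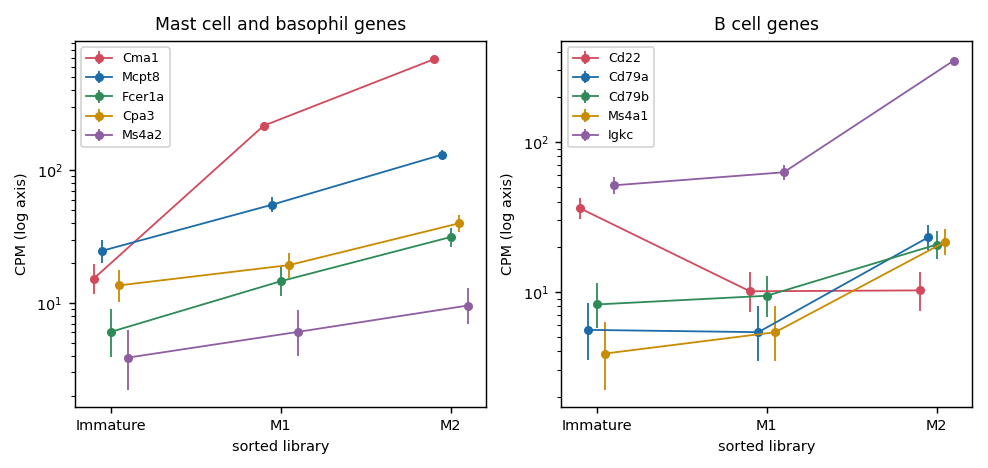
CPM in the 3 sorted libraries (log axes) for the 5 mast cell and basophil genes and for 5 B cell genes, with exact Poisson 95% intervals; each point is 1 library and lines only join a gene's points. Cma1 goes from 15.3 CPM in Immature to 681 CPM in M2, and Cd22 is the gene whose highest point is in Immature.

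Among mast cell and basophil genes Cma1 stood apart. Cma1 encodes a chymase, a granule protease, and lies on chromosome 14 (55941451 to 55944675) in the same cluster as Mcpt8 and Gzmb. It had 63 counts in Immature, 963 in M1 and 3065 in M2, or 15.3, 216 and 681 CPM. M1 was 14.1-fold above Immature (interval 11 to 18.5) and M2 was 3.16-fold above M1 (2.93 to 3.4). The gene made 24.0%, 69.5% and 76.3% of its lineage's counts. Gzmb, the granzyme B gene of NK cells in that cluster, stood at 145, 803 and 2016 CPM, with M1 5.55-fold above Immature. Gzmc, another granzyme gene there, had 25, 16 and 10 counts. Genes of this cluster resemble each other, and the treatment of reads with several matches is not stated in the sources at hand, so single levels in it are uncertain.

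The other 4 genes of the lineage rank together. Mcpt8, a protease that marks mouse basophils, had 102, 245 and 588 counts in Immature, M1 and M2 and was the second highest of the lineage per unit of length, at 289 TPM in M2 beside 1173 TPM for Cma1. Fcer1a and Ms4a2, the alpha and beta chains of the high-affinity IgE receptor, had 25, 65 and 141 and 16, 27 and 43 counts. Cpa3, a carboxypeptidase of granules, had 56, 86 and 179. These 4 summed to 48.2, 94.8 and 211 CPM, with M1 1.97-fold above Immature and M2 2.23-fold above M1. Within this set of 4, Fcer1a made 12.6%, 15.4% and 14.8% of the counts and Ms4a2 8.04%, 6.38% and 4.52%, with overlapping intervals. Mcpt8 made 51.3%, 57.9% and 61.8% and Cpa3 28.1%, 20.3% and 18.8%, and the intervals of these 2 did not overlap between Immature and M2.

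In a further list of 8 mast cell and basophil genes, 3 of 4 counted genes were at least 2-fold higher in M2 than in Immature and 1 was lower. Prss34, a protease of basophils, stood at 62.5, 111 and 260 CPM and Hdc, the enzyme that makes histamine, at 6.78, 11.9 and 25.8 CPM in Immature, M1 and M2. Gata2, a transcription factor of these cells, had 34, 101 and 136 counts. Kit, the stem cell factor receptor, which mast cells share with progenitors and some lymphoid cells, was the lower gene and the highest of the list in Immature, at 302, 148 and 50.9 CPM. The connective tissue mast cell gene Mcpt4 and the tryptase gene Tpsab1 were at 0 in all 9 libraries, and Tpsb2 had 1 count in Immature. The basophil genes Mcpt8 and Prss34 were present in each sorted library. So were the granule protease genes Cma1, at 15.3, 216 and 681 CPM, and Cpa3, with 56, 86 and 179 counts in Immature, M1 and M2. The cell type behind these transcripts was not tested. Fcer1a, Ms4a2 and Prss34 were at 0 in every culture, whereas Mcpt8 was not.

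Dendritic cell and platelet genes were near the limit of detection. Siglech, a receptor of plasmacytoid dendritic cells, had 2, 3 and 4 counts in Immature, M1 and M2. Flt3, a growth factor receptor of dendritic cells and progenitors, had 2, 3 and 18. Xcr1, a chemokine receptor of cross-presenting dendritic cells, had 2, 0 and 1. The platelet chemokine genes Pf4 and Ppbp had 8, 6 and 9 and 6, 15 and 20 counts, and 0 in all cultures. The lineage sums were 1.45, 1.34 and 5.11 CPM for dendritic cells and 3.39, 4.71 and 6.44 CPM for platelets. For Pf4, with under 10 counts in each library, the ratio of M2 to Immature was 1.03 (interval 0.353 to 3.07). No difference was detectable for it at this depth. Ppbp and Flt3 reached 10 counts in M2, and their ratios of M2 to Immature were 3.06 and 5.5. The Immature count of Flt3 was taken as 3 in this ratio.

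**Figure D4:**
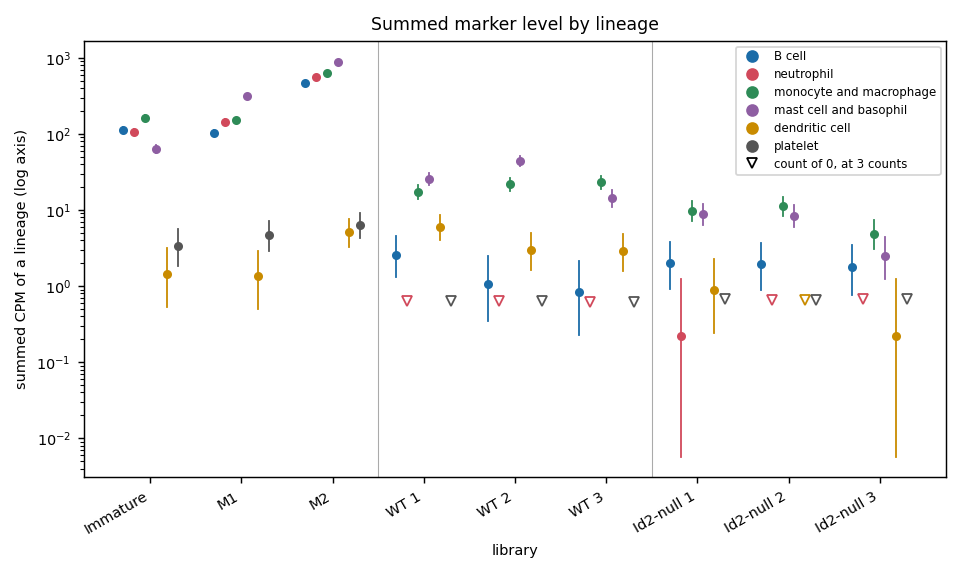
Summed CPM of each lineage's members (log axis) in each of the 9 libraries, with exact Poisson 95% intervals; open triangles stand at 3 counts where all members were at 0. The 4 larger lineages stand between 63.5 and 892 CPM in the sorted libraries and at or below 44.2 CPM in the cultures.

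Lists of other cells gave further context for the sorted libraries. Globin genes of red cells were present but low, with 7, 9 and 35 counts of Hba-a1 in Immature, M1 and M2, though reads of the near-identical Hba-a2 may be split with it. Of the red cell genes 6 of 9 were at 0 in all cultures. The MHC class II genes, which B cells, macrophages and dendritic cells share, summed to 297, 207 and 656 CPM. Col3a1, Cdh5 and Alb, markers of stroma, endothelium and liver, were at 0 in all 9 libraries. From the same list of 6, Pecam1, an adhesion gene of endothelium and also of leukocytes, stood at 146, 149 and 145 CPM in Immature, M1 and M2, Epcam had 13, 5 and 1 counts, and Col1a1 had 1 count in Immature. By contrast the 15 NK genes had a median ratio of M2 to M1 of 1.22 and of M2 to Immature of 1.61.

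In the cultures, the question was whether cells lacking Id2 held other amounts of these markers than WT cells. The main edgeR fit, which has no replicate block, called none of the members, and 2 were called lower with the block added. Some other fits without the block also called members lower, as given below. Of the 40 members 3 passed the expression filter, Cd68, Mcpt8 and Xcr1, and 0 of these were called by edgeR's quasi-likelihood test at a Benjamini-Hochberg adjusted p under 0.05 over 11022 genes, where 3.42% of all genes were called, 1.91% higher and 1.52% lower. All 3 had an unadjusted p under 0.05, as had 14.6% of all genes, and DESeq2 called all 3 lower in Id2-null cells, against 2.4% of all genes. With the replicate number as a block edgeR called Mcpt8 and Xcr1 lower, against 3.47% of all genes, and Cd68 had adjusted p = 0.0703. All 3 lay below WT in every Id2-null library and 0 lay above, against 10.3% and 9.46% of all genes. Xcr1 passed the filter through its WT counts alone (28, 14 and 14, against 4, 0 and 0 in Id2-null). Its direction was thus partly set by the filter. The other 37 members did not pass the filter, and 25 of them were at 0 in all cultures.

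Cd68 stood at 15.5, 18.8 and 20.5 CPM in WT replicates 1 to 3 and at 9.61, 10.8 and 4.69 CPM in Id2-null replicates 1 to 3. The groups did not overlap, and Id2-null replicate 3 was the lowest library. edgeR gave a log2 fold change of -1.11 with an SE of 0.32 and an adjusted p of 0.121. With DESeq2 the adjusted p was 0.0458.

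Mcpt8 stood at 16.7, 28.1 and 11.2 CPM in WT and 7.37, 7.35 and 2.45 CPM in Id2-null replicates 1 to 3, with replicate 3 the lowest of each genotype and no overlap between them. For Mcpt8 edgeR put the log2 fold change at -1.70, with SE 0.51 and adjusted p = 0.159. A fit with a replicate block called Mcpt8 lower (adjusted p = 0.00532, edgeR). It also passed with DESeq2 (0.0121) and without replicate 3 of both genotypes (0.000156). Of 15 listed genes of the same cluster 7 were tested, Mcpt8 among them. In the main fit 6 of these were called lower in Id2-null cells, against 1.52% of all genes, and Mcpt8 was not called. The list was chosen with earlier results of these data known. Gzmb fell from 9260 ± 229 to 2391 ± 281 CPM (SD, n = 3 each, adjusted p = 0.000197, edgeR). The other called genes were the granzyme genes Gzmc, Gzmd, Gzme, Gzmf and Gzmg. Of these, Gzmf and Gzmg passed the filter through their WT counts alone. Leaving out 1 library ended the edgeR call of Gzmd without Id2-null replicate 2 (adjusted p = 0.0538), and that of Gzmf without Id2-null replicate 1, Id2-null replicate 2 or WT replicate 2 (0.0584 to 0.0673).

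Xcr1 stood at 6.01, 2.96 and 2.90 CPM in WT and 0.894, 0 and 0 CPM in Id2-null replicates 1 to 3. It was the member that was higher in WT cultures than in any sorted library. The edgeR estimate in log2 units was -3.62, with SE 0.88 and adjusted p = 0.0699. The difference passed with the replicate block (adjusted p = 0.016), with DESeq2 (0.00926), with limma voom (0.0491), with no expression filter (0.0389) and without replicate 3 of both genotypes (0.00282). Id2-null replicate 1 held all 4 counts of that genotype, and without it the edgeR estimate was -7.22 (adjusted p = 0.058), a fitted value against libraries at 0 that is no bound.

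Cma1, Cd14 and Cpa3 were below the filter in the cultures. Cma1 had 31, 64 and 7 counts in WT and 0 in all 3 Id2-null libraries. With WT replicate 3 left out, which has 7 counts, it passed the filter and was called (adjusted p = 0.016, edgeR), as it was without replicate 3 of both genotypes (1.77e-06). With Id2-null at 0 it could pass the filter through its WT counts alone, so these calls are not independent support. The call was missed when any 1 Id2-null library was left out (0.231 to 0.276), with no filter (0.26) or with all 9 libraries (0.341). Cd14 had 8, 13 and 13 counts in WT and 1, 2 and 1 in Id2-null replicates 1 to 3, without overlap. Its adjusted p was 0.0324 with no expression filter and 0.0352 with all 9 libraries in the fit. When 1 library was left out it passed the filter in 4 edgeR fits, through its WT counts alone. Of these fits it was called in 1, that without Id2-null replicate 3 (0.0465), with adjusted p of 0.0807 to 0.141 in the others. Cpa3 had 11, 12 and 8 counts in WT and 7, 5 and 0 in Id2-null cultures, with adjusted p = 0.593 in edgeR when no filter was used.

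**Figure D5:**
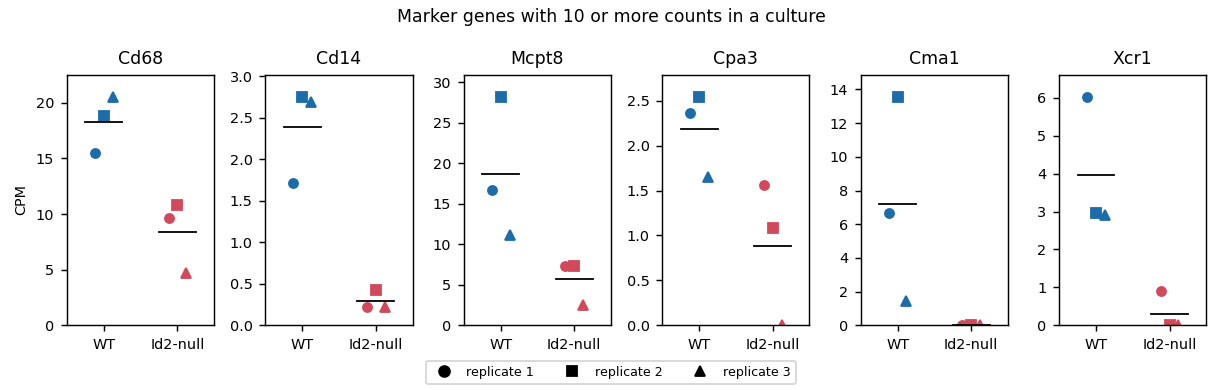
CPM in the 3 WT and 3 Id2-null cultures (linear axes from 0) for the 6 members that reached 10 counts in a culture; symbols give the replicate number and bars the mean of 3. Id2-null points lie below all WT points for each gene. Cd14, Cpa3, Cma1 and Xcr1 reached 10 counts in WT libraries only, so their selection favours this direction. The differences did not pass in the main edgeR fit for Cd68, Mcpt8 and Xcr1, while Cd14, Cpa3 and Cma1 were below the expression filter. With a replicate block Mcpt8 and Xcr1 were called lower.

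The B cell members were close to 0 in both genotypes, at 0.828 to 2.58 CPM summed over 12 genes in WT and 1.78 to 2.01 CPM in Id2-null cultures. Ms4a1, Pax5, Blk, Fcer2a, Blnk and Ighg2b were at 0 in all 6. Ebf1 had 1, 2 and 2 counts in Id2-null and 0 in WT libraries, and Cd79b had 6, 3 and 1 against 2, 0 and 0. Against this, 4 of 5 tested genes of the further B cell list were called higher in Id2-null cells and 0 lower. This stands beside the 1.91% of all genes given above. That list was chosen with earlier results of these data known, so its share is not independent of them. Ighm, the heavy chain constant region of IgM, rose from 141 ± 25.2 to 929 ± 160 CPM (SD, n = 3 each, adjusted p = 0.000422, edgeR). Jchain, Pou2af1, a coactivator of immunoglobulin genes, and Bank1, an adaptor of B cell signalling, rose as well, with adjusted p of 0.00335, 0.00726 and 0.0431 (edgeR). Jchain and Pou2af1 passed the filter through their Id2-null counts alone. Bank1 lost its call in 4 of 6 edgeR fits that left out 1 library (WT replicate 2, WT replicate 3, Id2-null replicate 1 or Id2-null replicate 2), with adjusted p up to 0.15. In the same Id2-null cultures Ms4a1 was at 0 and Cd79a had 1 to 2 counts, while Cd79b and Ebf1 had the counts given above. Ighd, also of the further list, had 18, 21 and 36 counts against 3, 5 and 12 in WT (adjusted p = 0.0849, edgeR). The cell type behind these transcripts was not tested.

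Neutrophil and platelet members were at 0 in the cultures apart from that 1 count of Camp, and a summed count of 0 there allows up to 0.621 to 0.670 CPM (3 counts). Mmp9, a gelatinase also made by neutrophils, was the tested gene of the further neutrophil list and fell from 30.8 ± 24.1 to 0.439 ± 0.213 CPM (SD, n = 3 each, adjusted p = 0.0479, edgeR). This call stood in 1 of 6 edgeR fits that left out 1 library, the one lacking WT replicate 3, and in the others adjusted p reached 0.24. It was also lost with limma voom (0.233), with no filter (0.121) and with all 9 libraries in the edgeR fit (0.055). It stood with the replicate block (4.71e-05), with DESeq2 (1.04e-06), with library sizes alone (0.0405) and without replicate 3 of both genotypes (1.03e-09). S100a8, S100a9 and Ngp were at 0 in the same WT libraries. Ctsg, of the further list and below the filter, had 6, 20 and 40 counts in WT replicates 1 to 3 and 0 in Id2-null cultures. Macrophage members other than Cd68 and Cd14 summed to 3 counts over the 6 cultures, all of Csf1r in WT. Of the remaining lists, 1 of 2 tested dendritic cell genes was called higher, Cox6a2, a mitochondrial subunit gene high in plasmacytoid dendritic cells. Cox6a2 rose from 1.27 ± 0.445 to 18.7 ± 7.06 CPM (SD, n = 3 each, adjusted p = 0.00234, edgeR), while Siglech was at 0 in every culture. Of the stroma and endothelium list Epcam rose and Pecam1 fell, with adjusted p of 0.00299 and 0.00202 (edgeR). Mmp9 passed the filter through its WT counts alone and Cox6a2 through its Id2-null counts alone.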

How the data were processed

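RNA sequencing counts of 9 mouse libraries were used. The deposited values are raw counts per Entrez gene beside each gene's length, per the file headers. Subread, featureCounts and limma, with GRCm38 (mm10), are named in the submitters' processing notes. Versions, annotation, strand setting and treatment of reads with several matches were not found in the sources at hand. Symbols, coordinates and sequences came from RefSeq tables of GRCm38.p6, which named 25275 of the 27179 genes.

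The members and all lists were chosen with earlier results of these data known. CPM are counts over the library total, and TPM use the deposited lengths. Differences between Id2-null and WT were tested with edgeR 4.0.16 under R 4.3.3 (filterByExpr, minimum count 10, TMM, robust quasi-likelihood fit, Benjamini-Hochberg adjustment), tested on simulated data. DESeq2 1.42.0 and limma 3.58.1 (voom) were alternatives. Sorted libraries were compared by CPM ratio, counts under 3 being taken as 3, without a test. Members with 10 CPM in a library, called members and the 2 highest per length in each lineage were named in full, and from other lists called genes and up to 4 by level. Genes and counts named beyond that were chosen after their values were seen. Same-numbered cultures of both genotypes deviated together (r = 0.353, 0.241 and 0.418 for replicates 1 to 3, across genes). Replicate 1 of either genotype with replicate 2 of the other also had positive r (0.189 and 0.136). Pairs of replicate 3 with 1 or 2 had r of -0.397 to -0.261. The replicate number was taken to pair the cultures, from the data and not from the labels, though replicates 1 and 2 are less clearly told apart.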

Additional observations from a re-analysis of the deposited data

How the results depend on the processing

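With 1 library per population, and counts of 10 or fewer for many markers, depth limits most statements on dendritic cell and platelet genes. Alternatives to the 0 members called lower in Id2-null cells gave 3 with DESeq2, 2 with no expression filter, 1 with limma voom, 1 with all 9 libraries in the fit, 2 with the replicate block, 3 without replicate 3 of both genotypes (chosen after seeing the data), and 0 to 1 when 1 replicate was left out. The single calls were Xcr1 with limma voom, Cd14 with all 9 libraries or without Id2-null replicate 3, and Cma1 without WT replicate 3. No alternative called a member higher. Over all genes 210 were higher and 167 lower, with the replicate block 452 and 383, with DESeq2 316 and 264, without replicate 3 of both genotypes 571 and 494, and 67 to 387 and 54 to 275 when 1 replicate was left out.

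At a 4-fold limit, members higher were 1 in M1 against Immature, 14 in M2 against M1 and 19 in M2 against Immature, and members lower than in Immature were 0 in M1 and 0 in M2. With 50 counts required, 3 were higher in M1 than in Immature. The summed level of the members in Immature, M1 and M2 was 472, 769 and 2885 CPM with TMM scaling, 395, 498 and 1878 CPM without the highest member (Lyz2 in Immature, Cma1 in M1 and M2), and 397, 649 and 2184 CPM without Igkc and Ighg2b. Without Cma1, an alternative chosen after seeing the data, M1 and M2 held 498 and 1878 CPM and Immature 433 CPM. TMM moved all ratios of M2 to Immature by 0.10 on the log2 scale and their median over the members to 4.45. Of 26 member levels in M2, 16 stayed within their counting interval under TMM and 10 were above it. With all 6 cultures in place of the WT cultures, 32 members were higher and 0 lower in the sorted libraries. Without M2, chosen after seeing the data, 26 were higher and 2 lower, Xcr1 and Cd68. The cause of these changes was not tested beyond the members or libraries left out.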
